A study of Mus musculus with 4 samples.

Results

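The expression of 10 genes for immunoreceptors and their adaptors was examined in mouse osteoclast cultures with and without NFATc1. The genes were grouped by function and chosen with earlier results of these data known. The group comprised 5 activating receptors (Oscar, Trem2, Trem1, Fcgr1 and Fcgr3), 2 adaptors that carry an immunoreceptor tyrosine-based activation motif, or ITAM (Tyrobp and Fcer1g), and 3 inhibitory receptors (Fcgr2b, Pirb and Sirpa). The 10 genes were represented by 17 of the 20393 probe sets with a single gene symbol in a table of 22690. A probe set is the group of array probes that measures one transcript or a few related ones.

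Both groups were C57BL/6 mice with floxed Nfatc1 alleles. Wild-type cultures came from NFATc1 fl/fl MxCre- mice, and NFATc1-deficient cultures came from NFATc1 fl/fl MxCre+ mice, in which polyIC treatment induces the Mx-driven Cre recombinase. The labels do not say if the MxCre- mice were given polyIC too. The Mx promoter answers to interferon in many cell types, so excision need not be limited to the osteoclast lineage. Precursors sorted from bone marrow as CD11b-, CD3e-, B220-, ckit+ and cfms+ cells spent 3 days in M-CSF and RANKL. Each genotype had 2 arrays, and each array carried RNA from cells pooled from 3 mice (replicate 1) or 4 mice (replicate 2). No age of the mice was given.

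Osteoclast differentiation needs a costimulatory signal beside RANK, and ITAM-linked receptors supply it. The receptors have short tails without signalling motifs and pair with an adaptor: OSCAR and the activating Fc receptors with the Fc receptor gamma chain (Fcer1g), and the TREM receptors with DAP12 (Tyrobp). Src family kinases phosphorylate the adaptor's ITAM, Syk docks there, and phospholipase C gamma then raises calcium, which activates calcineurin and so NFATc1. Inhibitory receptors carry a related motif, the ITIM, that recruits the phosphatases SHP-1, SHP-2 or SHIP.

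The deposited values were MAS5 signals on a linear scale, with array medians from 111.6 to 130.0. Nfatc1 itself stood at 61.5% and 68.5% of its wild-type mean signal at its 2 probe sets in the deficient cultures (adjusted p = 0.0102 and 0.0126, limma; 0.0881 and 0.0942 without NFATc1-deficient replicate 1). Where these probe sets lie relative to the excised part was not analysed here, so they do not by themselves check the deletion. All 6 osteoclast markers measured (Ctsk, Acp5, Calcr, Itgb3, Mmp9 and Ocstamp) fell, although Ctsk and Mmp9 did not pass without that array (adjusted p = 0.0749 and 0.136). Their summed signal was 41744.8 and 47727.6 on the wild-type arrays against 19056.1 and 26056.4 on the deficient arrays. The female-specific transcript Xist was at 3595.4 and 2690.0 on the replicate 1 arrays and at 106.1 and 111.4 on the replicate 2 arrays, so sex differed by replicate number in the same way in both genotypes.

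Changes below are log2 differences, deficient minus wild-type, on the scale log2(signal + 23.3), from a limma fit over 13578 probe sets, with Benjamini-Hochberg adjusted p-values and a threshold of 0.05. The added 23.3 understates the change of dim probe sets. Of the 10 genes, 9 passed the filter on low signal. At the brightest probe set of each gene 2 fell (Oscar and Sirpa) and 1 rose (Fcgr2b). Among all 7801 genes tested 11.8% were called lower and 12.8% higher, 24.6% in all. At 7 of the 9 genes the deficient signals did not overlap the wild-type signals, 5 lower and 2 higher, while 63.9% of all genes showed no overlap, 29.7% lower and 34.2% higher. The median change of the 9 genes was -0.29, beside 0.03 for all genes. The plot of signals by array shows the 10 genes.

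**Figure D1:**
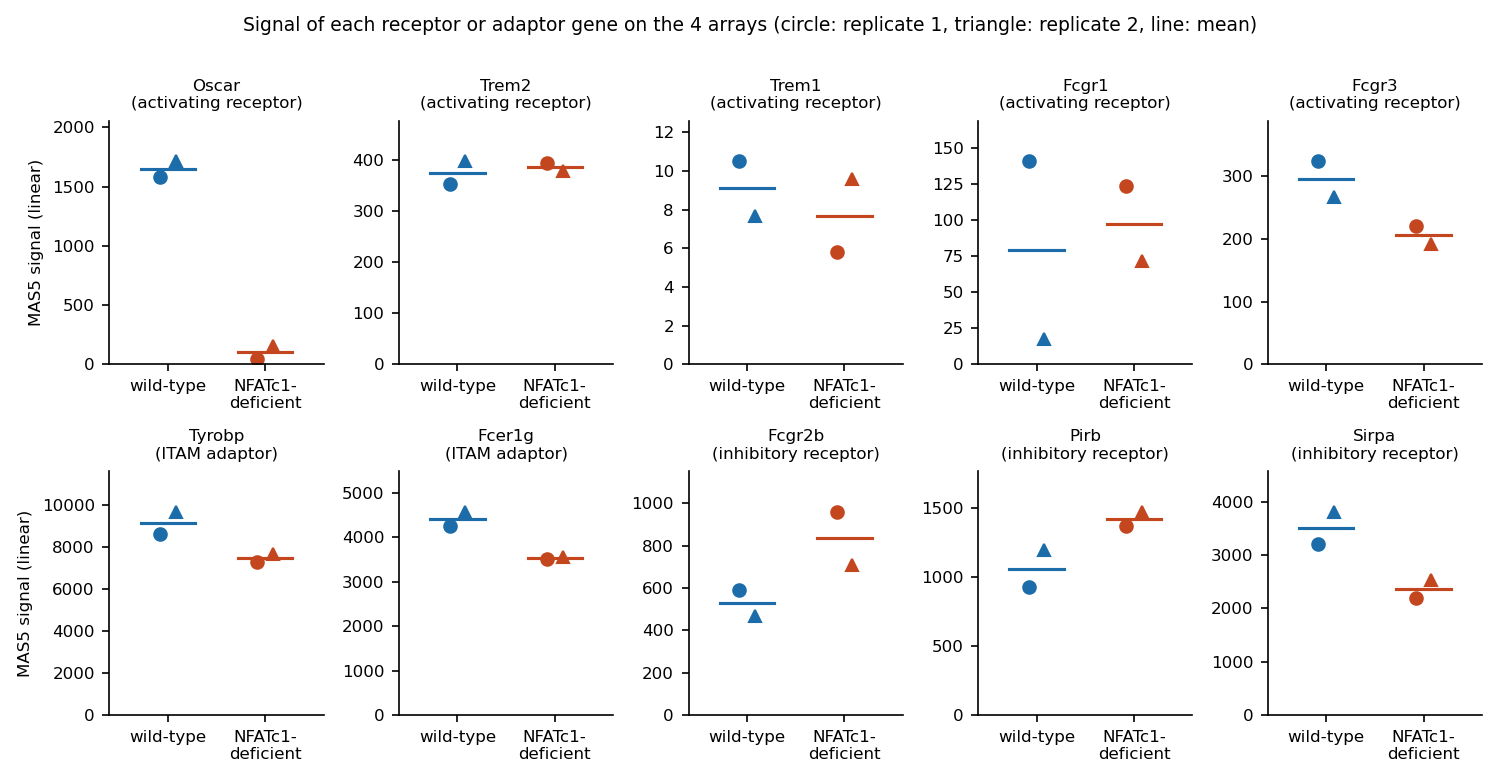
MAS5 signal (linear scale, each vertical axis from 0) of the brightest probe set of each gene on the 2 wild-type (blue) and 2 NFATc1-deficient (red) arrays; circles are replicate 1, triangles replicate 2 and lines the group means. Oscar drops to 48.4 and 155.5 on the deficient arrays, whereas the deficient means of Tyrobp, Fcer1g and Sirpa are 81.8%, 80.0% and 67.3% of wild-type.

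The promoter stretches of Oscar, which fell most, and of Fcgr2b, the gene that rose, are given to show what sequence lies before the start of each. The table of RefSeq promoters (build GRCm38.p6) held 8 of the 10 genes, without Tyrobp and Sirpa. The 250 bases before the start are printed 5′ to 3′ on the gene's strand, the minus strand in both cases. Oscar is at chr7:3616158-3616407 and Fcgr2b at chr1:170976072-170976321. Capitals mark matches on either strand to GGAAA (the core of NFAT sites), GAGGAA (the core of PU.1 sites) or CACATG (an E-box bound by MiT factors); overlaps between matches were allowed.
Oscar: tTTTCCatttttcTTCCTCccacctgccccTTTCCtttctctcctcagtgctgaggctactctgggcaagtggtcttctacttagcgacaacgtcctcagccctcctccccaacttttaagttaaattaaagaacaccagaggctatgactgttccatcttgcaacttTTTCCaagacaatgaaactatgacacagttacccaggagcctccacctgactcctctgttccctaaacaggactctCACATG
Fcgr2b: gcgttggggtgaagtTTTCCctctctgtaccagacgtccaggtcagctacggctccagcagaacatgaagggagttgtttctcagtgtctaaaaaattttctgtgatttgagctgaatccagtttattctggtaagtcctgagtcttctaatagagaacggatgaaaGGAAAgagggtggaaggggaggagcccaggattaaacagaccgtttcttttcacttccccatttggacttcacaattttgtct

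The Oscar stretch held 3 matches to GGAAA, all as TTTCC, with first bases 249, 220 and 82 bases before the start. It also held 1 match to GAGGAA at 237 and 1 to CACATG at 6 bases before the start. The Fcgr2b stretch held 2 matches to GGAAA, at 235 and 83 bases before the start. Among 32841 promoter stretches of this length 55.6% held GGAAA at least once and 6.39% held it at least 3 times. GAGGAA was in 23.3% and CACATG in 12.3% of them. Each of the 8 genes held GGAAA at least once, and Trem2 also held 3 GGAAA matches. CACATG was in the Pirb stretch too, and GAGGAA was in those of Fcgr1, Fcgr3, Pirb, Trem1 and Trem2. TGANTCA (AP-1) was found in the stretch of Trem2 alone among the 8 genes and in 6.75% of all stretches, and CACGTG, an E-box in 6.02% of all stretches, was in none of the 8. A match describes letters and does not show binding.

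Of the 4 tested activating receptors Oscar alone passed the threshold. OSCAR is the osteoclast-associated receptor for collagen that signals through the Fc receptor gamma chain. At probe set 1425442_at its signal was 1582.0 and 1713.2 in wild-type cultures and 48.4 and 155.5 in deficient cultures. At 1451710_at it was 1893.6 and 1571.8 against 28.9 and 118.4. Both wild-type arrays were many times above both deficient arrays at each probe set, and deficient replicate 1 was the lower of the deficient pair. The mean fell from 1650 ± 92.8 to 102 ± 75.7 (SD, n = 2), or to 6.19% of wild-type, at the first probe set, and to 4.25% at the second. The log2 change was -3.88 (SE 0.35, 95% interval -4.67 to -3.09, adjusted p = 0.000253) and -4.35 (SE 0.38, adjusted p = 0.000241). Of 7801 genes, 8 had a lower log2 change than the first. The replicate 1 arrays differed by -4.48 and the replicate 2 arrays by -3.28. In these bulk cultures fewer cells with a transcript and less transcript per cell cannot be told apart, and the osteoclast markers above fell on the same arrays.

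Trem2 and Trem1 encode receptors of the TREM family that pair with DAP12, TREM2 being a lipid-sensing receptor of macrophages and osteoclasts and TREM1 an amplifier of inflammation in neutrophils and monocytes. The brighter Trem2 probe set, 1421792_s_at, whose suffix marks probes shared with other transcripts, had signals of 352.8 and 397.7 in wild-type and 395.5 and 378.8 in deficient cultures, which overlapped. Its log2 change was 0.04, with a 95% interval of -0.30 to 0.39 (adjusted p = 0.867). The interval leaves no room for a change of the size seen for Oscar. The dimmer one had 79.7 and 82.6 against 58.4 and 135.7, a change of 0.13 (95% interval -0.64 to 0.89). Trem1 was between 5.8 and 10.5 on the 4 arrays, under the added 23.3, and did not pass the filter. Without a filter its log2 change was -0.07 (SE 0.18, adjusted p = 0.887).

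Fcgr1 and Fcgr3 encode the activating Fc gamma receptors CD64 and CD16, which bind IgG. Fcgr3 was at 323.3 and 267.2 in wild-type and at 220.8 and 192.5 in deficient cultures. The groups did not overlap, but the change of -0.47 (SE 0.19, 95% interval -0.89 to -0.04) did not pass the threshold (adjusted p = 0.104, limma). The 2 wild-type Fcgr1 signals, 141.0 and 17.7 (the latter under the added 23.3), lay on either side of both deficient signals, 123.7 and 71.7. Its change was 0.53 with an SE of 0.57 (adjusted p = 0.552). Without wild-type replicate 1 the Fcgr1 change was 1.53 (adjusted p = 0.00652) and without wild-type replicate 2 it was -0.48 (adjusted p = 0.349), so 1 array sets its direction. Its adjusted p ran from 0.00652 to 0.881 over 11 alternative settings.

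The ITAM adaptors had lower means in the deficient cultures, and neither passed. DAP12, encoded by Tyrobp, serves the TREM receptors. Tyrobp signals were 8622.5 and 9682.9 in wild-type and 7277.8 and 7687.4 in deficient cultures. The deficient mean was 81.8% of the wild-type mean, and the change was -0.29 (SE 0.11, 95% interval -0.54 to -0.04, adjusted p = 0.0936, limma). The gamma chain gene Fcer1g, the partner of OSCAR, was at 4257.6 and 4564.3 against 3496.7 and 3557.9. Its deficient mean was 80.0% of wild-type, with a change of -0.32 (SE 0.10, 95% interval -0.55 to -0.09, adjusted p = 0.0504, limma). For both adaptors the 2 deficient signals lay below the 2 wild-type signals. The within-replicate differences were -0.24 and -0.33 for Tyrobp and -0.28 and -0.36 for Fcer1g. Fcer1g passed in 5 of 12 alternative settings (adjusted p from 0.0273 to 0.304) and Tyrobp in 3 of 12 (0.0141 to 0.487), each with a lower level. Both passed without wild-type replicate 1 (-0.37 for each, adjusted p = 0.0319 for Fcer1g and 0.0141 for Tyrobp). The 95% intervals of both adaptors lie apart from that of Oscar, but the difference between the changes was not tested.

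Among the inhibitory receptors Sirpa fell and Fcgr2b rose. SIRPA binds CD47 and recruits SHP-1 and SHP-2. At its brightest probe set, 1416985_at, Sirpa signals were 3202.7 and 3812.4 in wild-type and 2189.1 and 2533.2 in deficient cultures. At 1448534_at they were 2260.2 and 2744.2 against 1288.1 and 1627.5, and at 1416986_a_at 1511.6 and 1678.7 against 710.7 and 1080.9. Neither genotype overlapped the other at any of the 3. The changes were -0.56 (SE 0.13, adjusted p = 0.0128), -0.77 (SE 0.14, adjusted p = 0.00615) and -0.84 (SE 0.18, adjusted p = 0.0109), with deficient means at 67.3%, 58.3% and 56.2% of wild-type. Without NFATc1-deficient replicate 1 the brightest probe set had -0.46 and did not pass (adjusted p = 0.0896, in a range of 0.000676 to 0.0896 over its alternatives). The other 2 still passed without that array (adjusted p = 0.0271 and 0.0296). Without the variance trend 2 of the 3 did not pass (adjusted p = 0.0682 for the brightest and 0.0584 for 1416986_a_at).

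FCGR2B is the inhibitory Fc gamma receptor, which recruits SHIP. Its brightest probe set, 1435477_s_at, had signals of 591.2 and 469.2 in wild-type and 958.4 and 709.6 in deficient cultures. The mean rose from 530 ± 86.3 to 834 ± 176 (SD, n = 2), a change of 0.62 (SE 0.18, adjusted p = 0.0329, limma). The other 3 probe sets changed by 0.40, 0.39 and 0.25 and did not pass (adjusted p = 0.0670, 0.155 and 0.293). The signals of 1451941_a_at were 473.0 and 428.5 against 634.4 and 573.1, those of 1455332_x_at 309.1 and 360.9 against 515.6 and 384.7, and those of 1435476_a_at 544.7 and 419.2 against 571.4 and 574.1. At each of the 4 the deficient signals lay above the wild-type signals. The suffix _s of the probe set that passed marks probes shared with other transcripts, so its signal may not be of Fcgr2b alone. Its call was lost without NFATc1-deficient replicate 1 (0.41, adjusted p = 0.187) or wild-type replicate 2 (0.47, adjusted p = 0.0925), without a filter and without the variance trend. Its adjusted p ran from 0.00336 to 0.187 over 12 alternatives.

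PIRB, the paired immunoglobulin-like receptor B, binds MHC class I and recruits SHP-1. Its probe set had signals of 923.5 and 1195.3 in wild-type and 1364.2 and 1469.3 in deficient cultures, which did not overlap. The change of 0.42 (SE 0.14, 95% interval 0.10 to 0.74) did not pass (adjusted p = 0.0595, limma). It passed in 3 of 12 alternatives, among them without wild-type replicate 2 (0.60, adjusted p = 0.00867), and its adjusted p ran up to 0.289. The Pira genes are close paralogs, and how far their transcripts reach this probe set was not tested.

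**Figure D2:**
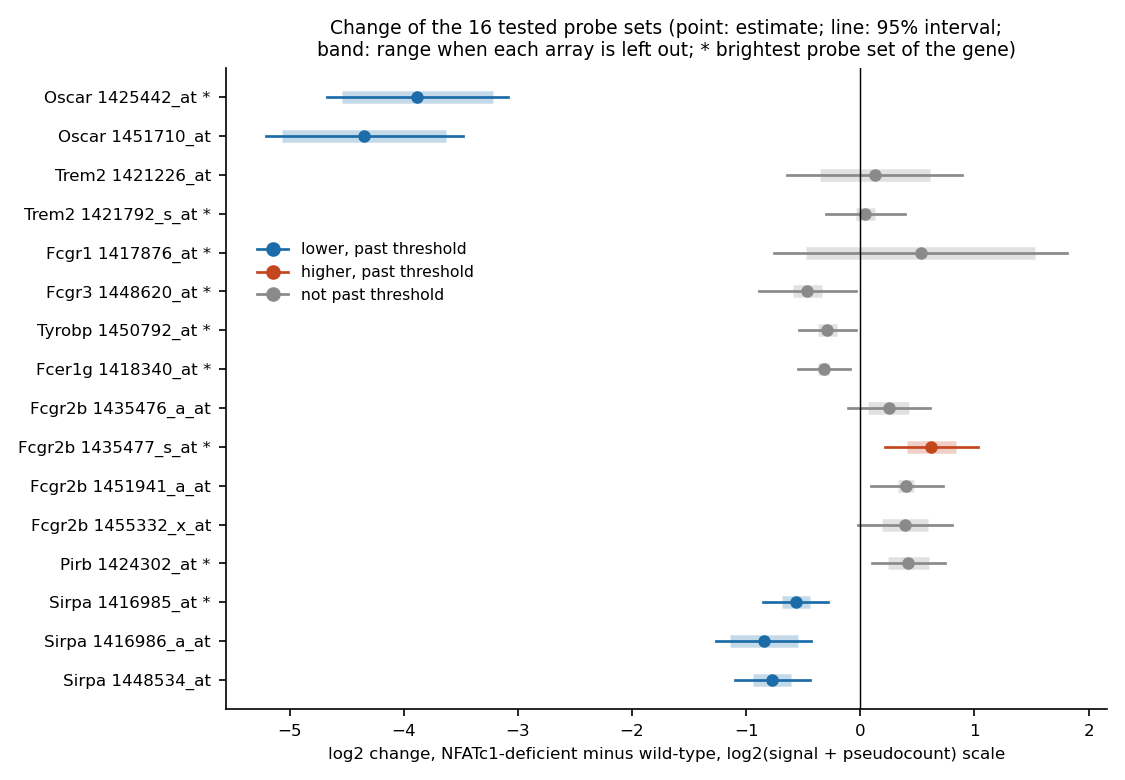
Log2 change (deficient minus wild-type, log2(signal + 23.3) scale) of the 16 tested probe sets; points are limma estimates, lines 95% intervals, bands the range when each array is left out, and asterisks the brightest probe set of each gene. The 2 Oscar probe sets lie at -3.88 and -4.35, and every other estimate lies between -0.84 and 0.62.

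Cells other than osteoclasts also express these receptors, and their markers were read on the same arrays. The sort before culture had kept only cells negative for CD11b, CD3e and B220. Of 10 granulocyte markers 9 were on the array, and none was at or below the added 23.3 on all arrays. Their summed signal was 4978.6 and 5878.2 on the wild-type arrays and 14767.9 and 7150.4 on the deficient arrays. Of 8 tested, 3 (S100a8, S100a9 and Ngp) rose. Csf3r went the other way, with 135.9 and 137.5 in wild-type against 129.9 and 40.5 in deficient cultures. Its change of -0.69 did not pass (adjusted p = 0.229, limma). The signals of Camp, Ltf, Elane and Mpo overlapped between the genotypes. Without NFATc1-deficient replicate 1 S100a9 (0.79, adjusted p = 0.182) and Ngp (0.56, adjusted p = 0.0903) did not pass. The 5 dendritic cell markers summed to 2164.3 and 1740.2 against 3057.4 and 2880.6, and of 3 tested H2-Aa, an MHC class II gene, rose (1544.5 and 1286.9 against 2566.7 and 2334.4) and makes up most of the sum. The signals of Itgax (350.5 and 334.1 against 322.4 and 399.6) and Cd209a (124.9 and 47.7 against 71.6 and 87.3) overlapped. The granulocyte sum and H2-Aa were higher on the deficient arrays, as were Fcgr2b and Pirb, and their part in those signals was not tested. The 7 macrophage markers summed to 33022.2 and 37831.2 against 28724.3 and 27957.3, lower on the deficient arrays as were Sirpa, Tyrobp and Fcer1g. Csf1r, Lyz2 and Cd68 make up most of that sum. Of 6 tested, Lyz2 (-0.12), Adgre1 (-0.40) and Mrc1 (0.05) did not pass. Cd68 (-0.68) and Csf1r (-0.41) fell and Cd14 rose (0.54, adjusted p = 0.0404, limma). None of the 3 calls held without NFATc1-deficient replicate 1 (adjusted p = 0.101 for Cd68 and 0.228 for Cd14, and a change of -0.43 for Csf1r), those of Csf1r (0.0834) and Cd14 (0.0845) were also lost without wild-type replicate 2, and that of Csf1r without NFATc1-deficient replicate 2 (0.273). The part of these cells was likewise not tested. Sums overlapped between genotypes for the 5 B cell markers (278.9 to 448.5 in wild-type, 366.7 to 433.8 in deficient), the 6 mast cell and basophil markers (153.7 to 171.3 and 138.1 to 199.0) and the 4 platelet markers (481.6 to 636.5 and 552.6 to 664.2). Of 2 platelet markers tested neither passed. Pf4 signals overlapped, and Itga2b signals did not (153.1 and 124.2 against 188.7 and 286.3, a change of 0.67, adjusted p = 0.0763, limma). The 6 T and NK cell markers summed to 167.5 and 245.9 in wild-type and 140.0 and 156.4 in deficient cultures, with Ncr1 at or below 23.3 on all arrays. No mast cell and basophil or T and NK cell marker passed the filter on low signal, so these sums are of dim probe sets.

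Genes around these receptors were read from the same fit in 5 lists with 82 tested genes, of which 19 fell (23.2%) and 5 rose (6.1%), beside 11.8% and 12.8% of all genes. No share of a list was tested against all genes. Of 11 related activating receptors and adaptors, 1 fell and none rose (0 in limma, 1 at an unadjusted p under 0.05), with a median of 0.14; the share that fell, 9.09%, was no higher than that of all genes. The one that fell was the C-type lectin dectin-2 (Clec4n), which pairs with the gamma chain, from 1864.2 and 1853.7 to 896.5 and 865.6 (-1.06, SE 0.11, adjusted p = 0.000433). Clec7a, the dectin-1 gene, had -0.82 (adjusted p = 0.0551) and the adaptor DAP10 (Hcst) had -0.64 (adjusted p = 0.0534). With single arrays left out the Clec7a change ran from -1.17 to -0.47. Clec4d, named after its value was seen, had 0.37 (adjusted p = 0.0747, limma) and ran from 0.20 to 0.54 when single arrays were left out.

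Of 14 related inhibitory receptors 4 fell (28.6%) and 1 rose (7.14%), with a median of -0.28. Cd84, a SLAM family receptor that can also activate, fell from 1371.5 and 1559.8 to 209.5 and 181.1 (-2.77, SE 0.14, adjusted p = 4.99e-05). Vsir, which encodes the immune checkpoint VISTA, changed by -1.82 and Cd5 by -1.29, and the fourth, Cd200r1, named after its value was seen, by -0.84. Cd5 did not pass without NFATc1-deficient replicate 1 (-0.97, adjusted p = 0.0643), nor Cd200r1 without NFATc1-deficient replicate 2 (-0.72, adjusted p = 0.0773). Havcr2, which encodes TIM-3, rose from 19.2 and 57.5 to 149.4 and 152.7 (1.57, SE 0.34, adjusted p = 0.0108), where the first signal lies under the added 23.3. Ceacam1 had -0.67 (adjusted p = 0.0771) and Ly9 -0.58 (adjusted p = 0.0929, limma). Of the 4 other Ceacam1 probe sets tested 1 passed (-0.94, adjusted p = 0.0488, limma). At its brightest probe set the Ceacam1 change ran from -1.06 to -0.28 when single arrays were left out.

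Of 31 ITAM signalling genes 8 fell (25.8%) and 1 rose (3.23%), with a median of -0.14. Protein kinase C beta (Prkcb) fell from 828.1 and 887.4 to 191.1 and 181.0 (-2.07, SE 0.15, adjusted p = 0.000120). The phosphatase gene Ptprj, whose product dephosphorylates Src family kinases, changed by -1.50, the adaptor SLP-76 (Lcp2) by -1.16 and the adaptor Lat2 by -1.04. The other genes that fell, named after their values were seen, were Src (-1.03), Lat (-0.67), Pik3ap1 (-0.57) and Syk (-0.46), and the one that rose was the adaptor Blnk (0.70). The other 2 Syk probe sets had -0.17 and -0.25 and did not pass (adjusted p = 0.352 and 0.278). Grb2, named after its value was seen, had 0.25 at its brightest probe set and did not pass. Another Grb2 probe set was lower and passed (-0.54, adjusted p = 0.037, limma). Without NFATc1-deficient replicate 1 Syk (-0.39), Lat (-0.49) and Pik3ap1 (-0.45) did not pass, nor did Pik3ap1 without wild-type replicate 1 (-0.51). The 22 that did not pass ran from -0.78 (Zap70, adjusted p = 0.411, limma) to 0.30. Zap70 signals were 284.9 and 42.2 in wild-type and 85.2 and 40.2 in deficient cultures, which overlapped. With single arrays left out its change ran from -1.89 to 0.34, so its direction depended on the array left out. Vav3 had -0.47 and did not pass, while another of its probe sets did (-0.69, adjusted p = 0.0289, limma). With single arrays left out the brightest Vav3 probe set ran from -0.69 to -0.26.

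Of 16 inhibitory phosphatases and adaptors 5 fell (31.2%) and 2 rose (12.5%), with a median of -0.26. The phosphatase gene Ptpn18 changed by -1.57, the adaptor Pstpip1 by -1.44 and Dok3 by -0.92. Dok1 (-0.59) and Ptpn22 (-0.40) also fell; these and Dok2 were named after their values were seen. Pag1, a membrane anchor of the Src inhibitor Csk, rose by 0.80 (adjusted p = 0.0459) and Dok2 by 0.41. Without NFATc1-deficient replicate 1 Pag1 (0.59, adjusted p = 0.231), Dok2 (0.43, adjusted p = 0.0752) and Ptpn22 (-0.27, adjusted p = 0.289) did not pass. Pag1 (0.46) and Ptpn22 (-0.39) were also lost without wild-type replicate 2, and Dok2 without wild-type replicate 1 (0.35) or NFATc1-deficient replicate 2 (0.39). The phosphatases that ITIM receptors recruit did not pass: SHP-1 (Ptpn6) had -0.16, SHP-2 (Ptpn11) 0.02 and SHIP (Inpp5d) -0.24, named after their values were seen. Inppl1 had -0.34 (adjusted p = 0.125) and Sla -0.48 (adjusted p = 0.0877), with another Sla probe set at -0.98 (adjusted p = 0.0259). Ptpn12, named after its value was seen, had -0.24 at its brightest probe set and did not pass (adjusted p = 0.14, limma). Its other probe sets were lower and passed (-0.71, -0.71 and -0.39, adjusted p = 0.00438, 0.00158 and 0.0262, limma).

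Of 10 genes tested in the list of ligands and partners, which is not limited to ligands of the receptors above, 1 fell and 1 rose. That was 10% each, below the shares of all genes, with a median of -0.12. Apolipoprotein E (Apoe), a ligand of TREM2, changed by -1.94 (adjusted p = 0.00135). Thrombospondin 1 (Thbs1), which binds CD47, rose by 1.09 (adjusted p = 0.00581), although another probe set had 0.49 and did not pass. H2-D1, an MHC class I gene, had -0.32 (adjusted p = 0.0547; another probe set -0.39, adjusted p = 0.0258; -0.36 and adjusted p = 0.0217 without wild-type replicate 1) and Gas6 had -0.67 (adjusted p = 0.172).

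**Figure D3:**
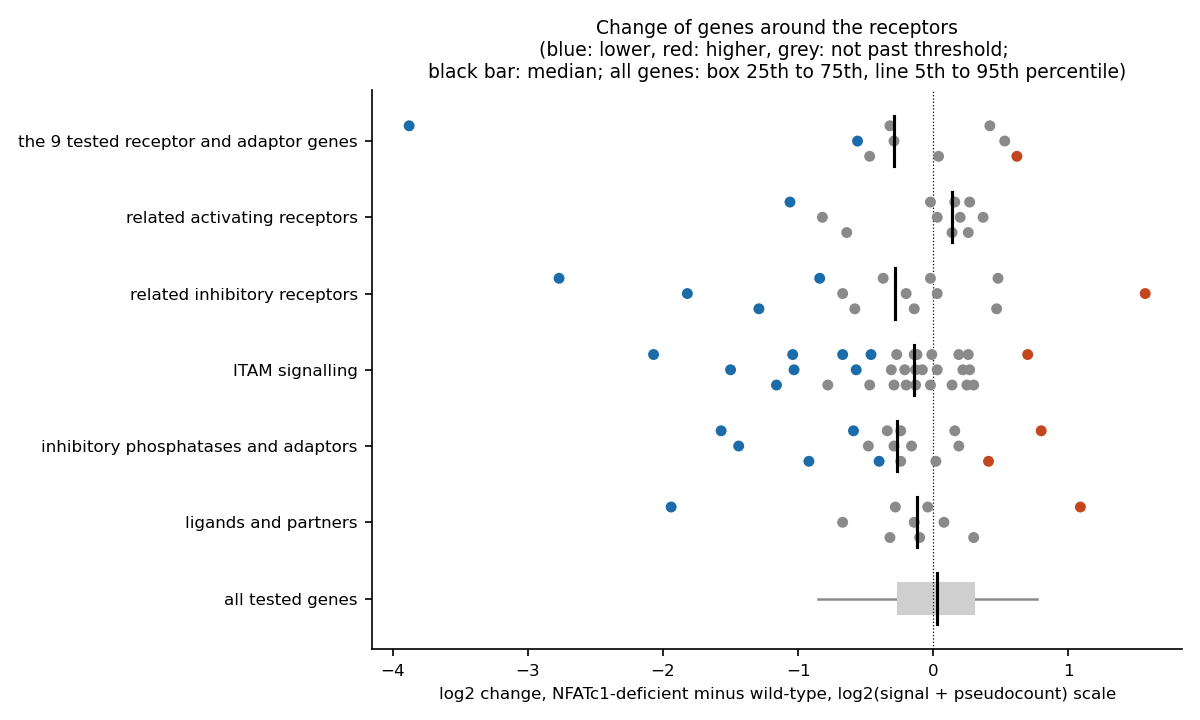
Log2 change (deficient minus wild-type) of the tested genes of each list, 1 point per gene at its brightest probe set, blue for lower, red for higher and grey for not past the threshold; black bars are medians, and the bottom line gives all 7801 genes (box 25th to 75th, line 5th to 95th percentile). Oscar at -3.88 and Cd84 at -2.77 lie farthest to the left.

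The genes whose pattern over the 4 arrays lay closest to that of Oscar were the myosin Myo1d (distance 0.24), the aldo-keto reductase Akr1c18 (0.31) and the integrin ligand Edil3 (0.33). The measure was the Euclidean distance between log2 values centred on each gene's mean, over 7801 genes. Myo1d signals were 3388.2, 3646.5, 103.0 and 363.8 on wild-type replicates 1 and 2 and deficient replicates 1 and 2. Closest to Tyrobp were Ptgr1, Cox6b1 and Hmga2 (0.03 each), none of which passed (adjusted p = 0.130, 0.0884 and 0.475, limma). The measure rests on 4 arrays and takes in the size of the change.

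**Figure D4:**
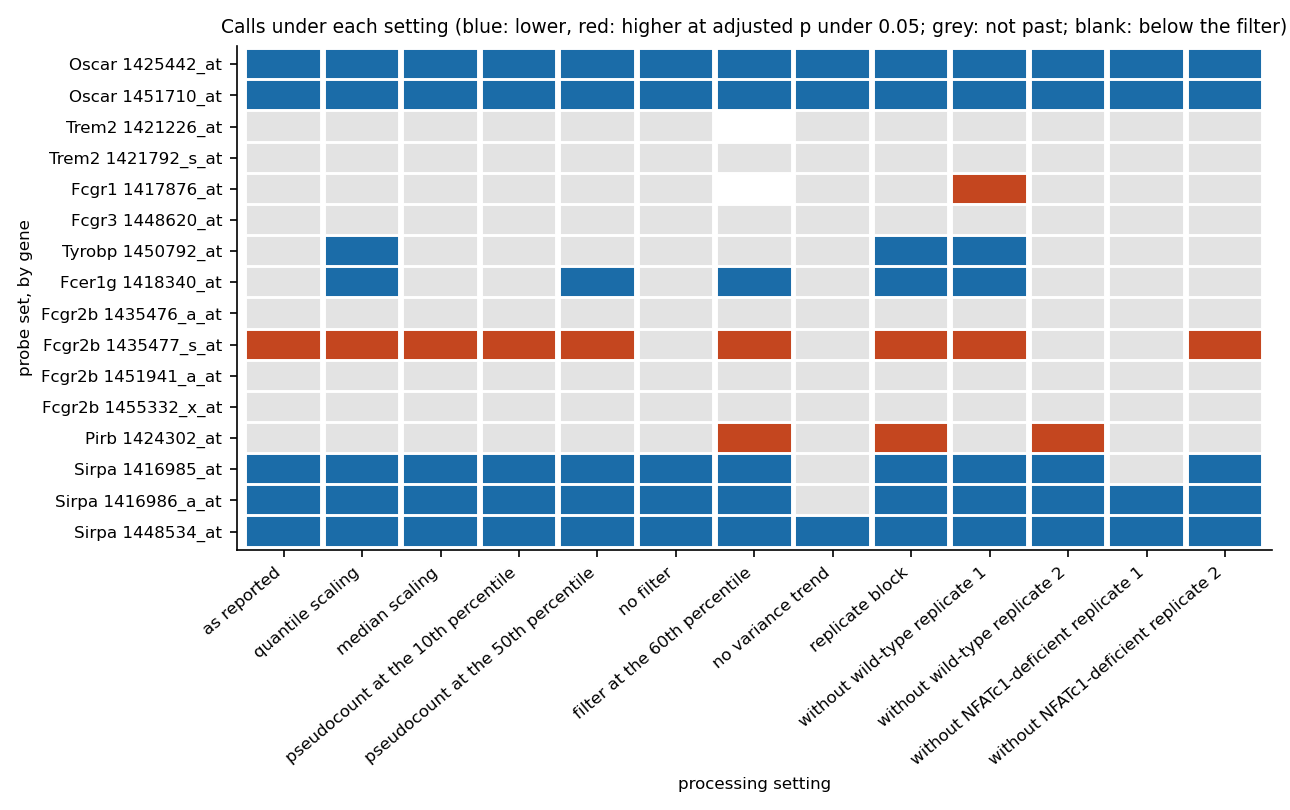
Calls of the 16 tested probe sets (vertical axis) under the reported setting and 12 alternatives (horizontal axis), blue where lower and red where higher at an adjusted p under 0.05, grey where not past it and blank where the filter removed the probe set. Both Oscar probe sets and 1 of 3 Sirpa probe sets are blue throughout. The calls of the other Sirpa probe sets, of Tyrobp, Fcer1g, Fcgr1 and Pirb, and of Fcgr2b 1435477_s_at come and go with the setting. The other Fcgr2b probe sets and those of Fcgr3 and Trem2 pass in no setting.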

How the data were processed

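Signal intensity was deposited for each probe set of 4 Affymetrix arrays, as MAS5 values made by the authors; the tool is named in the submitters' processing notes. Its version is not given in the sources used here, nor are detection calls. The mean of each array without its top and bottom 2% was 500.2.

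Names came from the platform annotation (20393 with 1 symbol, 691 with several, 1606 with none), and 20364 matched RefSeq by Entrez number. Signals were analysed as log2(signal + 23.3), the 25th percentile. After 64 control probe sets were left out, those with a mean log2 value above the 40th percentile (13578) entered limma 3.58.1 under R 4.3.3 (lmFit, eBayes with trend, two-sided, Benjamini-Hochberg over all). Genes took their brightest tested probe set by mean log2 value.

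The members, lists and settings were chosen with earlier results of these data known. All 10 members are described with every probe set. Of each list up to 4 genes past the threshold and up to 2 not past it were named by size of change, with the 3 genes closest to Oscar and to Tyrobp. Others are said to be named after their values were seen. The replicates are separate pools of mice, 2 per genotype, and that number limits the precision. The fit was also run on simulated data with noise drawn independently for each value, which does not cover effects shared across an array. Alternatives covered scaling, pseudocount, filter, variance trend, replicate block, probe set choice and leaving out each array. Osteoclast markers Dcstamp and Atp6v0d2 and protein sequences were not analysed here.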

Additional observations from a re-analysis of the deposited data

How the results depend on the processing

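Both Oscar probe sets passed with a lower level in all 12 alternatives in which they were tested, with log2 changes from -5.07 to -3.04. The count of receptor and adaptor genes called lower (2) was 4 with quantile scaling, 4 with the replicate block and 1 without the variance trend, and ran from 1 to 4 when single arrays were left out. The count called higher (1) was 2 with the stricter filter at the 60th percentile and 2 with the replicate block. It was 0 in limma without a filter (2 at an unadjusted p under 0.05), 0 without the variance trend (1 unadjusted) and 0 with all probe sets of a gene averaged (2 unadjusted), and ran from 0 to 2 when single arrays were left out (2 unadjusted for the 0). Among the other pathway genes the count called higher (5) was 3 with the stricter filter, 3 without the variance trend, 7 with quantile scaling and 7 with the replicate block, and ran from 3 to 5 when single arrays were left out. The count called lower (19) ran from 14 to 24. Same-numbered arrays deviated from their group means with a correlation of 0.13, and shared sex and pool size, but with 2 pairs and no label of a shared animal, litter or day the numbers were not taken as pairing. With the replicate block Tyrobp (adjusted p = 0.0432), Fcer1g (0.0284) and Pirb (0.0173) passed, and no call of another receptor or adaptor probe set changed.

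With single arrays left out Fcgr1 ran from -0.48 (without wild-type replicate 2) to 1.53, the brighter Trem2 probe set from -0.04 (without wild-type replicate 1) to 0.13 and the dimmer one from -0.35 (without NFATc1-deficient replicate 2) to 0.61; none of the reversed values passed. Of all 7801 genes 924 were lower and 998 higher, against 576 and 494 without NFATc1-deficient replicate 1 and 579 higher without the variance trend. Of 13578 probe sets 1546 were lower and 1739 higher, against 933 and 849 without that array, 1157 higher without a filter and 1015 higher without the variance trend. The cause of these shifts was not tested. Signals at or below 23.3 cannot be ordered among themselves and leave the size of a change uncertain, and the signal over background is unknown. Markers given only as sums are not listed one by one here. Among the receptor and adaptor genes such signals were seen on all arrays for Trem1 and on 1 wild-type array for Fcgr1. Among the other named genes outside the osteoclast markers they were seen on all arrays for Ncr1 and on 1 wild-type array for Havcr2. Among the osteoclast markers they were seen on both deficient arrays for Itgb3 (4.6 and 10.2) and on NFATc1-deficient replicate 1 for Calcr (17.0).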

Other observations

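The platform annotation lists 3 further probe sets under Pirb together with its activating paralogs, so they belong to no single gene and were left out of the comparisons above. All 3 rose in the NFATc1-deficient cultures. One annotated to 3 genes had signals of 2237.0 and 2232.6 in wild-type and 3978.9 and 4539.2 in deficient cultures, a log2 change of 0.92 (SE 0.11, adjusted p = 0.000818, limma). Another annotated to 3 genes had 219.1 and 229.6 against 378.5 and 463.9 (0.84, SE 0.17, adjusted p = 0.00900, limma). The one annotated to 6 genes had 3302.5 and 3585.8 against 4582.9 and 5372.4 (0.53, SE 0.12, adjusted p = 0.0124, limma). The last of these and the dimmest did not pass without NFATc1-deficient replicate 2 (adjusted p = 0.0969 and 0.0566), and passed in 9 and 11 of 12 alternatives. The first passed in all 12, with an adjusted p of at most 0.00255 when an array was left out and up to 0.0182 over the others. Which genes of the family these signals came from was not tested, and the probe set of Pirb alone, at 0.42, did not pass.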
